A study of Mus musculus with 10 samples.

Results

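Chemokines and myeloid growth factors were followed in the dorsal root ganglia (DRG) of mouse embryos, the ganglia that hold the cell bodies of somatosensory neurons together with their glia, vessels, connective tissue and resident macrophages. The group consists of 9 genes, the ligands *Cx3cl1*, *Ccl2*, *Cxcl14* and *Cxcl12*, the receptors *Cxcr4* and *Ackr3*, and the growth factors *Csf1*, *Il34* and *Tgfb1*. They were taken by name, each through its Ensembl identifier, from the 55414 genes listed in every library. The choice used no measured value, except that *Cx3cl1* is a gene the study had already picked from these same libraries, so its difference between the groups is not independent evidence.

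RNA of DRG was sequenced in bulk at E18.5 in 5 control and 5 *WD1* cKO embryos. *WD1* cKO embryos were *Wnt1* Cre/+; *Dach1* flox/flox. In these embryos, Cre driven by *Wnt1* regulatory sequence is active in the neural crest, from which DRG neurons and glia derive, and removes a floxed exon of *Dach1*, a transcription factor gene. Macrophages, endothelial cells and blood cells do not derive from the neural crest and would keep the exon. Control embryos were littermates by the study's account. They carried the floxed alleles without Cre, and the *Dach1* flox line was kept on a mixed C57Bl/6J and CD1 background. In the labels, the genotype entries of control and mutant samples are swapped with respect to the titles. The titles were followed, and every direction given here rests on them. Levels are given in CPM, the count of a gene scaled to a common library size. *Dach1* fell from 37.9 ± 2.40 CPM (SD, n = 5) in control to 20.0 ± 0.677 CPM (SD, n = 5) in the embryos titled *WD1* cKO. All 5 of the latter were below the lowest control embryo (log2 fold change -0.92, standard error 0.050, Benjamini-Hochberg adjusted p = 5.48e-06, edgeR quasi-likelihood test), which goes with the titles and against the genotype entry.

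Chemokines are small secreted proteins that guide cells along gradients, and they are named after the spacing of the first cysteines of the mature protein. CX3CL1 (fractalkine) is made by neurons as a membrane protein, can be shed by the proteases ADAM10 and ADAM17, and binds CX3CR1 on macrophages and microglia. CXCL12 signals through CXCR4, while ACKR3 binds and clears it. CSF1 and IL-34 share the receptor CSF1R, on which tissue macrophages depend, and TGF-β1 is a growth factor of broad action that also shapes the state of macrophages.

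The coding stretch around the signature cysteines is shown for the 4 ligands of the chemokine family, since it is what puts them in different classes. Each stretch lies within exon 2 and is printed 5′ to 3′ on the coding strand, with the codons of the first 2 cysteines in capitals. Positions are those of GENCODE M21 on GRCm38, which differs from the build of the counts, GRCm39.
*Cx3cl1*, chr8:94778030-94778095, plus strand: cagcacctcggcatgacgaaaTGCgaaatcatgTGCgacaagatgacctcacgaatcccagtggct
*Cxcl12*, chr6:117171484-117171546, plus strand: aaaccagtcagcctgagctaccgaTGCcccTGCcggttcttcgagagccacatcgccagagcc
*Cxcl14*, chr13:56295885-56295929, minus strand: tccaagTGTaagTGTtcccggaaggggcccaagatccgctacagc
*Ccl2*, chr11:82036485-82036541, plus strand: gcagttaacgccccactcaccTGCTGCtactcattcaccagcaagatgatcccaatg
In *Cx3cl1* the cysteine codons, 32 and 36 of the open reading frame, have 3 codons between them. In *Cxcl12* and *Cxcl14* 1 codon separates them, and in *Ccl2* they are adjacent.

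Depth ranged from 20465132 to 27528784 counted reads in control libraries and from 19757596 to 34796562 in *WD1* cKO libraries. The markers of DRG were present. *Tubb3*, a pan-neuronal tubulin gene, stood at 1924 ± 56.8 CPM in control and 1876 ± 43.5 CPM in *WD1* cKO (SD, n = 5), and *Isl1*, a sensory neuron transcription factor gene, at 295 ± 44.1 and 271 ± 24.7 CPM. Control replicates 3 and 5 stood apart, the latter by its muscle genes, given beside *Cxcr4*. In control replicate 3 the summed level of 5 spinal cord genes was 15.1 CPM against at most 1.09 CPM in any other library, and 10 connective tissue genes summed to 5971 CPM against 4330 to 5590 CPM elsewhere. Hemoglobin and other blood genes varied over a wide range within each group, from 156 to 2504 CPM in control and from 190 to 1148 CPM in *WD1* cKO libraries. In both groups replicates 4 and 5 were lowest, at 156 and 184 CPM in control and 243.5 and 190 CPM in *WD1* cKO. Replicates 1 to 3 were at 1083 CPM or more in control and 512.5 CPM or more in *WD1* cKO. The reason was not tested. The values of macrophage, endothelial and connective tissue markers are given beside the genes they touch.

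All 9 genes passed the filter of at least 10 counts in at least 5 libraries, and 0 reached an adjusted p-value under 0.05. The edgeR test called 7 of the 17490 genes tested (0.0400%). At an unadjusted p-value under 0.05, 1 of the 9 was lower in *WD1* cKO, against 2.38% of all genes tested, and 0 were higher, against 2.12%. That gene was *Cx3cl1*, which the study had already picked from these same libraries, so the count is not independent evidence. Without control replicate 3 the log2 fold change of *Cx3cl1* was -0.39 (unadjusted p = 0.01895 in edgeR) and without control replicate 5 -0.36 (unadjusted p = 0.0241 in edgeR). By sign, 5 genes had lower and 4 higher fitted levels in *WD1* cKO. Their median log2 fold change was -0.0049, beside 0.00022 for all genes tested. For none of the 9 did the values of the groups fail to overlap, while 1.06% of all genes had groups that did not overlap (0.566% with *WD1* cKO lower). The Benjamini-Hochberg adjusted p-value from edgeR was 1.00 for each of the 9 genes. The exact permutation tests compare mean log2 CPM, are two-sided and cannot give a p-value below 0.00794 with 5 libraries against 5.

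**Figure D1:**
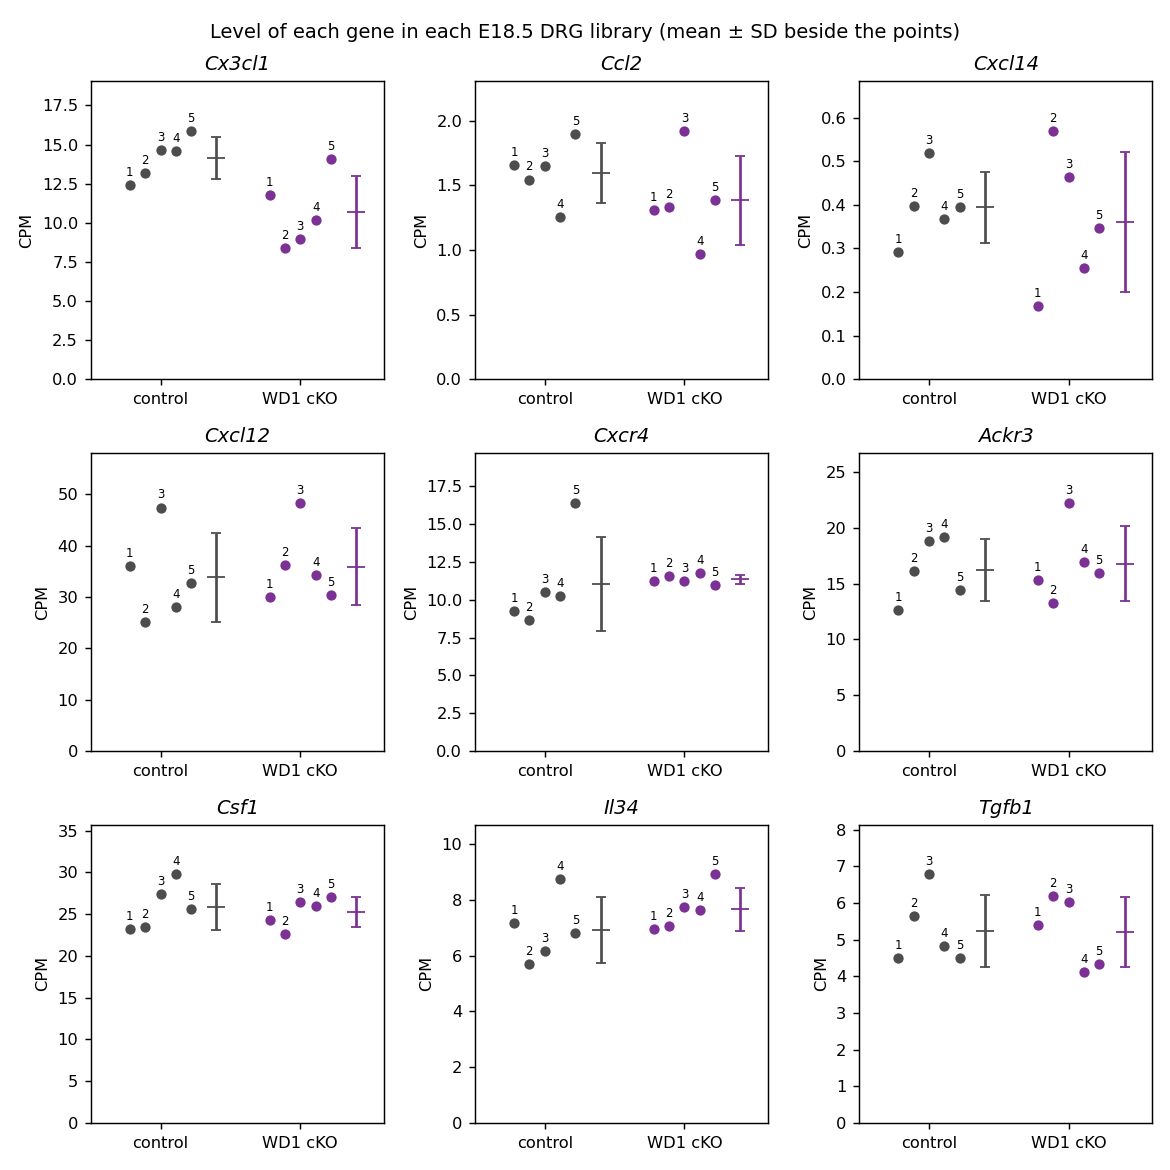
Level of each of the 9 genes in CPM (linear axis from 0) in the 5 control (grey) and 5 *WD1* cKO (purple) libraries, numbered by replicate, with the group mean ± SD beside the points. For *Cx3cl1* 4 of 5 *WD1* cKO libraries lie below the lowest control library, and for *Cxcr4* control replicate 5 lies alone at 16.4 CPM.

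Among the ligands, *Cx3cl1* (ENSMUSG00000031778, chromosome 8) was counted between 200 and 487 times per library. In control embryos its level was 12.4, 13.2, 14.6, 14.6 and 15.9 CPM in replicates 1 to 5. In *WD1* cKO embryos it was 11.8, 8.40, 8.98, 10.2 and 14.1 CPM. Thus 4 of 5 *WD1* cKO libraries were below the lowest control library, and replicate 5 was within the control range. The mean was 14.1 ± 1.35 CPM in control and 10.7 ± 2.29 CPM in *WD1* cKO (SD, n = 5). The log2 fold change was -0.40 (standard error 0.13, 95% interval -0.69 to -0.12), a change of -24.4% with an interval from -37.8% to -7.96%. Its unadjusted p-value in edgeR's quasi-likelihood test was 0.00913, which ranked 136 among 17490 genes and gave an adjusted p of 1.00. The exact permutation test gave p = 0.0317. In bulk RNA, fewer cells that make a transcript and less of it per cell cannot be told apart. By immunostaining at E18.5, the study found no difference from controls in Islet1+ neurons or in general subtype markers. Those counts did not include *Cx3cl1*.

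The sign of the *Cx3cl1* difference stayed the same with each library left out. These fits share most of their libraries, from which the study had picked the gene, so they are not independent evidence. When single libraries were left out, its log2 fold change ran from -0.53, without *WD1* cKO replicate 5, to -0.33, without *WD1* cKO replicate 2, and the unadjusted p-value stayed under 0.05 in 10 of 10 fits. Over all 16 alternatives its adjusted p-value ran from 0.397 to 1.00 and never passed 0.05. The study's own rule for these libraries asks for an unadjusted p below 0.005 and an absolute log2 fold change over 0.15. This rule was met by 67 of 17490 genes (0.383%) in edgeR. With all 10 libraries, the filter on low counts and no block for the replicate number, *Cx3cl1* was outside it in edgeR. It was inside it in DESeq2's Wald test (unadjusted p = 0.00331, adjusted p = 0.715). DESeq2 is the package the study used, so this result is not independent of the study's pick of *Cx3cl1*. In edgeR it was also inside it without the filter (unadjusted p = 0.00326, adjusted p = 0.777) and without *WD1* cKO replicate 5 (unadjusted p = 0.000439, adjusted p = 0.505). Its place under this rule therefore depended on the test, the filter and 1 library, among other choices.

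The partners of *Cx3cl1* did not pass the unadjusted threshold. *Cx3cr1*, its receptor and a macrophage marker, was at 8.19, 9.13, 9.04, 8.24 and 8.93 CPM in control and 10.8, 8.13, 11.5, 8.18 and 7.91 CPM in *WD1* cKO embryos. Its groups overlapped, with *WD1* cKO replicates 1 and 3 above and the other three below the control range (log2 fold change 0.097, standard error 0.11, unadjusted p = 0.404 and adjusted p = 1.00 in edgeR). *Adam10* stood at 200 ± 11.4 CPM in control and 203 ± 14.3 CPM in *WD1* cKO (SD, n = 5). *Adam17* stood at 62.5 ± 4.08 and 65.6 ± 2.66 CPM, with unadjusted p = 0.160 in edgeR. None of these values bears on how much of the protein was shed.

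Neurons are known to make *Cx3cl1*, and the summed level of their markers overlapped between the groups, from 9472 to 10370 CPM in control and from 9706 to 10320 CPM in *WD1* cKO for 10 pan-neuronal genes, with 0 of 10 at an unadjusted p under 0.05 in edgeR. For 10 nociceptor genes, *Prdm12* among them at 175 ± 11.7 and 164 ± 14.7 CPM (SD, n = 5), the sum ran from 4273 to 5114 CPM and from 4268 to 4835 CPM. Of these 10 genes, 1 was lower and 0 higher at an unadjusted p under 0.05 in edgeR, beside 2.38% and 2.12% of all genes tested. Fitted values were lower for 8 and higher for 2 of them. *Ntrk2*, which encodes TrkB and marks the low-threshold mechanoreceptors in which Dach1 is enriched at this stage, was at 215 ± 12.4 CPM in control and 189 ± 14.4 CPM in *WD1* cKO (SD, n = 5, unadjusted p = 0.00611, adjusted p = 1.00 in edgeR). The 8 genes listed for these mechanoreceptors are partly shared with other DRG neurons. Of them, 2 were lower and 2 higher at an unadjusted p under 0.05 in edgeR, beside 2.38% and 2.12% of all genes tested. *Calb2* and *Shox2* are on the list and were reported by the study from these same libraries, so the count is not independent evidence. *Calb2*, which encodes calretinin and is named here after its values were seen, was the one with an adjusted p under 0.05 (4.10 ± 0.533 and 0.981 ± 0.162 CPM, SD, n = 5, adjusted p = 4.83e-05 in edgeR). The summed level of the 8 ran from 1319 to 1477 CPM in control and from 1361 to 1453 CPM in *WD1* cKO. Their part in the level of *Cx3cl1* was not tested.

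*Ccl2* (ENSMUSG00000035385, chromosome 11) encodes a ligand of CCR2 that draws monocytes, and it is induced in sensory neurons after nerve injury. It was counted between 19 and 58 times per library. Its level was 1.66, 1.54, 1.65, 1.25 and 1.89 CPM in control and 1.31, 1.33, 1.92, 0.966 and 1.39 CPM in *WD1* cKO embryos. *WD1* cKO replicate 3 was the highest and replicate 4 the lowest of the 10 libraries, so that the mutant range enclosed that of controls. The log2 fold change was -0.19 (standard error 0.18, 95% interval -0.59 to 0.21, unadjusted p = 0.320 in edgeR, exact permutation p = 0.254). A drop of up to 33.4% and a rise of up to 15.5% both lie inside the interval.

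*Cxcl14* (ENSMUSG00000021508, chromosome 13), a chemokine of the CXC class that is abundant in skin and other epithelia, was near the limit of detection. Only 45 reads were counted over the 5 control and 50 over the 5 *WD1* cKO libraries, between 4 and 15 in each. The level was 0.293, 0.397, 0.518, 0.368 and 0.396 CPM in control and 0.169, 0.570, 0.464, 0.254 and 0.346 CPM in *WD1* cKO embryos. The mutant values again enclosed the control values. The log2 fold change was -0.095 (standard error 0.31, 95% interval -0.77 to 0.58, unadjusted p = 0.762 in edgeR, exact permutation p = 0.556). A difference was not detectable at this depth. The gene passed the filter with exactly 5 libraries and fell out of 5 of the 10 fits that left out a library.

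*Cxcl12* (ENSMUSG00000061353, chromosome 6) was the member with the most reads, from 569 to 1462 per library. In control embryos it was at 36.0, 25.1, 47.5, 28.1 and 32.7 CPM. In *WD1* cKO embryos it was at 30.0, 36.3, 48.4, 34.4 and 30.5 CPM. Replicate 3 was the highest in each group, and the groups overlapped over nearly their whole range. The mean was 33.9 ± 8.67 CPM in control and 35.9 ± 7.47 CPM in *WD1* cKO (SD, n = 5), and the log2 fold change was 0.089 (standard error 0.17, 95% interval -0.28 to 0.46, unadjusted p = 0.611 in edgeR, exact permutation p = 0.619). Connective tissue cells are a known source of *Cxcl12*, and the libraries with the highest *Cxcl12* also had the highest connective tissue sums of their groups, 5971 CPM in control replicate 3 and 5590 CPM in *WD1* cKO replicate 3. *Col1a1*, a collagen gene and first of the connective tissue markers, was at 1211 ± 242 CPM in control and 1354 ± 164 CPM in *WD1* cKO (SD, n = 5), and *Col1a2* at 1356 ± 216 and 1432 ± 126 CPM. Collagen genes made up most of the connective tissue sums. Of 10 connective tissue genes, 1 was higher and 0 lower at an unadjusted p under 0.05 in edgeR. The shares of all genes tested were 2.12% and 2.38%. The higher one was *Lum* (unadjusted p = 0.0277 in edgeR, singled out after its values were seen). Fitted values were higher for 8 and lower for 2 of the 10 connective tissue genes. Their sums ran from 4330 to 5971 CPM in control and from 4733 to 5590 CPM in *WD1* cKO. Their part in the level of *Cxcl12* was not tested. Without control replicate 3 the log2 fold change was 0.24 (unadjusted p = 0.125 in edgeR), and without *WD1* cKO replicate 3 it was -0.047 (unadjusted p = 0.767 in edgeR), so its sign rested on single libraries.

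Of the receptors of CXCL12, *Cxcr4* (ENSMUSG00000045382, chromosome 1), a G protein-coupled receptor that guides migrating cells and growing axons, was at 9.27, 8.64, 10.5, 10.3 and 16.4 CPM in control embryos. In *WD1* cKO embryos it was at 11.2, 11.6, 11.2, 11.7 and 11.0 CPM. The mutant libraries lay close together, with a coefficient of variation of 2.69%, and the control libraries did not, with 28.2%. They lay above 4 of the controls and below the remaining one, replicate 5. The mean was 11.0 ± 3.11 CPM in control and 11.3 ± 0.305 CPM in *WD1* cKO (SD, n = 5), and the log2 fold change was 0.040 (standard error 0.14, 95% interval -0.27 to 0.35, unadjusted p = 0.787 in edgeR, exact permutation p = 0.730). Without control replicate 5 the log2 fold change was 0.23 (unadjusted p = 0.00847, adjusted p = 0.882 in edgeR). Whether *Cxcr4* differed at the unadjusted threshold was therefore decided by 1 library. Control replicate 5 also had the highest summed level of 8 muscle genes, 200 CPM against 24.8 to 122 CPM in the other nine libraries. Of the muscle genes 7 were tested, with 6 lower and 1 higher fitted values, a median log2 fold change of -0.53 and 0 at an unadjusted p under 0.05 in edgeR. *Myog*, the first of these markers, was at 0.499 ± 0.344 CPM in control and 0.523 ± 0.316 CPM in *WD1* cKO (SD, n = 5). In control replicate 5 the nociceptor and mechanoreceptor sums were the highest too, at 5114 and 1477 CPM. The other libraries ran from 4268 to 4985 CPM and from 1319 to 1464 CPM. The part of these genes and of the muscle genes in the level of *Cxcr4* was not tested.

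*Ackr3* (ENSMUSG00000044337, chromosome 1), the scavenging receptor, was at 12.6, 16.1, 18.8, 19.1 and 14.4 CPM in control and 15.3, 13.3, 22.3, 17.0 and 16.0 CPM in *WD1* cKO embryos. The highest value was that of *WD1* cKO replicate 3, which also held the highest *Cxcl12*, and the other four mutant libraries were within the control range. The log2 fold change was 0.047 (standard error 0.14, 95% interval -0.26 to 0.36, unadjusted p = 0.749 in edgeR, exact permutation p = 0.833). Without *WD1* cKO replicate 3 it was -0.081. Endothelial cells express both receptors in many tissues. Their markers *Pecam1* and *Cdh5* were at 60.9 ± 4.56 and 98.5 ± 14.6 CPM in control and at 61.9 ± 3.38 and 97.4 ± 17.9 CPM in *WD1* cKO (SD, n = 5). The 12 endothelial genes summed to 375 to 433 CPM in control and 365 to 429 CPM in *WD1* cKO, with 0 of 12 at an unadjusted p under 0.05 in edgeR.

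**Figure D2:**
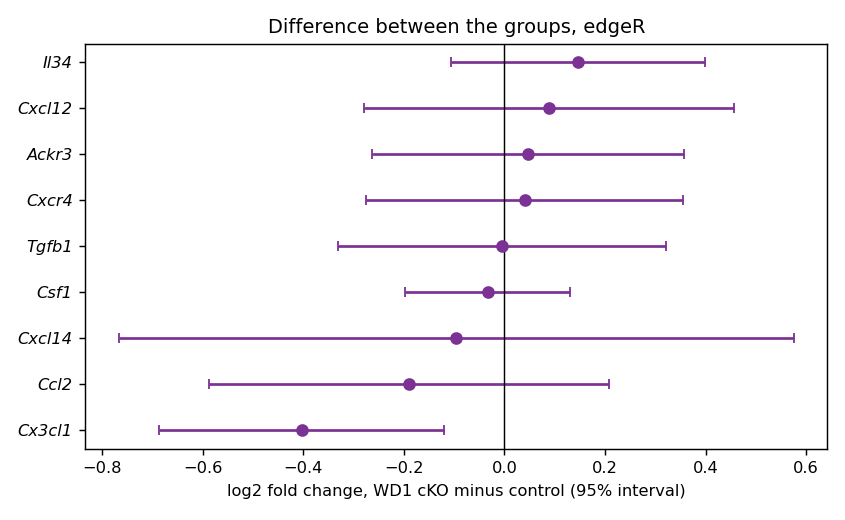
Log2 fold change of each of the 9 genes, *WD1* cKO minus control, from edgeR, with its 95% interval as a horizontal bar and 0 as a vertical line. The interval of *Cx3cl1*, from -0.69 to -0.12, is the only one of the 9 that leaves out 0, and that of *Cxcl14*, the gene with the fewest reads, is the widest.

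Among the growth factors, *Csf1* (ENSMUSG00000014599, chromosome 3) was at 23.2, 23.4, 27.4, 29.8 and 25.6 CPM in control and 24.4, 22.7, 26.4, 26.0 and 27.1 CPM in *WD1* cKO embryos. Only *WD1* cKO replicate 2 was outside the control range, just below it. The log2 fold change was -0.033 (standard error 0.075, 95% interval -0.20 to 0.13, unadjusted p = 0.668 in edgeR, exact permutation p = 0.738). *Csf1* had the narrowest interval of the 9 genes, from a change of -12.8% to one of 9.50%.

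*Il34* (ENSMUSG00000031750, chromosome 8), the second ligand of CSF1R, which neurons and keratinocytes make, was at 7.17, 5.69, 6.17, 8.76 and 6.82 CPM in control embryos. In *WD1* cKO embryos it was at 6.95, 7.07, 7.75, 7.62 and 8.92 CPM. Control replicate 4 was above 4 of the mutant libraries, while the lowest 2 values were those of control replicates 2 and 3. The mean was 6.92 ± 1.18 CPM in control and 7.66 ± 0.783 CPM in *WD1* cKO (SD, n = 5), and the log2 fold change was 0.15 (standard error 0.12, 95% interval -0.11 to 0.40, unadjusted p = 0.231 in edgeR, exact permutation p = 0.246). Without control replicate 4 it was 0.25 (unadjusted p = 0.0303, adjusted p = 0.956 in edgeR). As for *Cxcr4*, 1 control library decided on which side of the unadjusted threshold the gene lay.

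*Tgfb1* (ENSMUSG00000002603, chromosome 7) was at 4.49, 5.65, 6.78, 4.82 and 4.49 CPM in control and 5.39, 6.19, 6.03, 4.12 and 4.33 CPM in *WD1* cKO embryos. The means, 5.24 ± 0.980 and 5.21 ± 0.954 CPM (SD, n = 5), differed by far less than the spread within each group, and *WD1* cKO replicates 4 and 5 held the lowest values. The log2 fold change was -0.0049 (standard error 0.15, 95% interval -0.33 to 0.32, unadjusted p = 0.974 in edgeR, exact permutation p = 0.960).

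The receptor that CSF1 and IL-34 share, and the macrophages that carry it, were read from *Csf1r* and the macrophage markers. *Csf1r* was at 22.1 ± 1.36 CPM in control and 21.5 ± 1.75 CPM in *WD1* cKO (SD, n = 5, log2 fold change -0.045, standard error 0.065, unadjusted p = 0.496 in edgeR). The 14 macrophage markers summed to 117 to 138 CPM in control and 114 to 137 CPM in *WD1* cKO libraries, and 0 of 14 had an unadjusted p under 0.05 in edgeR. No macrophage marker was at 0 in any library.

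**Figure D3:**
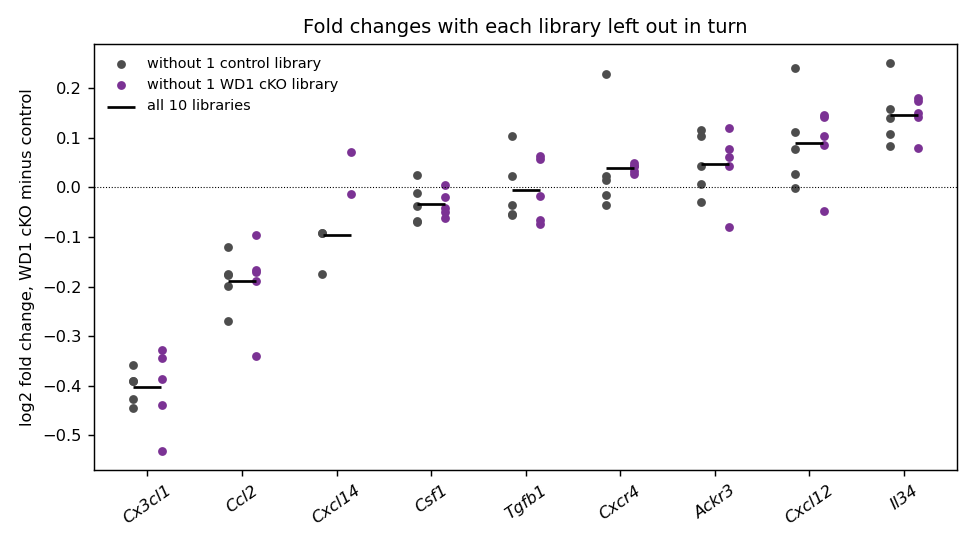
Log2 fold change, *WD1* cKO minus control, of each of the 9 genes with all 10 libraries (black line) and with 1 control (grey) or 1 *WD1* cKO (purple) library left out. *Cx3cl1*, *Ccl2* and *Il34* keep their sign in every fit shown, and single points far from the line mark the libraries that weigh most for *Cxcr4*, *Cxcl12* and *Il34*.

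Levels were compared between genes per kb of exon, with exon lengths from GENCODE M21. In control embryos *Cxcr4* was highest with 6.09 ± 1.72 CPM per kb, followed by *Csf1* with 4.90 ± 0.527, *Ackr3* with 4.84 ± 0.834 and *Cxcl12* with 4.14 ± 1.06 CPM per kb. *Cx3cl1* with 3.60 ± 0.343 and *Il34* with 3.53 ± 0.601 CPM per kb came next. *Ccl2* followed with 1.41 ± 0.204, *Tgfb1* with 1.04 ± 0.194 and *Cxcl14* with 0.216 ± 0.0444 CPM per kb (SD, n = 5 each). The ranges over the 5 control libraries overlapped between neighbours in this order, except between *Il34* and *Ccl2* and between *Tgfb1* and *Cxcl14*. Farther apart in the order, the control range of *Cxcr4* lay wholly above those of *Cx3cl1* and *Il34*, and that of *Csf1* above that of *Cx3cl1*. *Cxcl14* lay by itself at the low end. In *WD1* cKO embryos *Cx3cl1* was at 2.72 ± 0.584 and *Il34* at 3.91 ± 0.400 CPM per kb. There the ranges of *Cxcr4* and *Csf1*, and those of *Cxcl12* and *Cx3cl1*, did not overlap either.

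**Figure D4:**
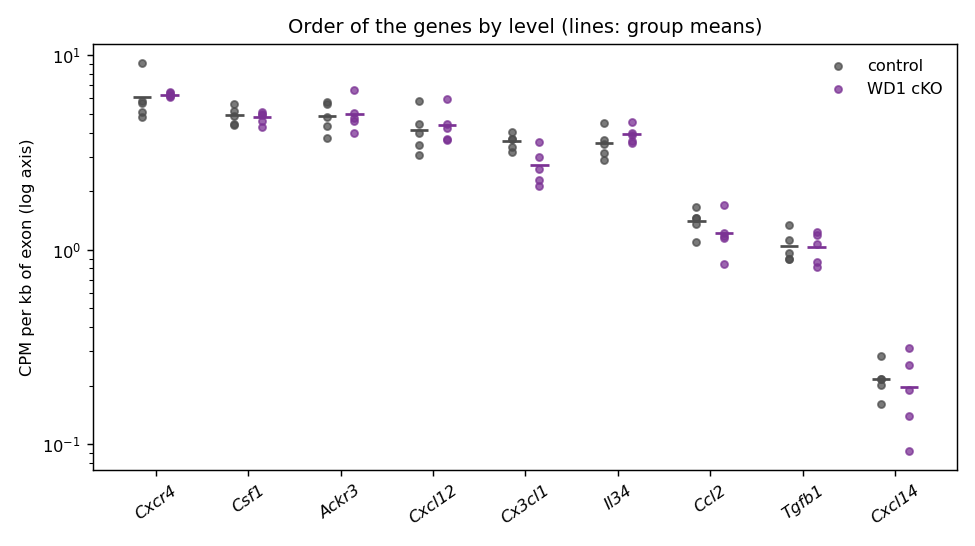
Level per kb of exon on a log axis, in the order of the control means, for each control (grey) and *WD1* cKO (purple) library, with lines at the group means. Gaps are seen between *Il34* and *Ccl2* and between *Tgfb1* and *Cxcl14*, and the control means span from 0.216 to 6.09 CPM per kb.

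The other genes of these pathways were read from 5 lists of 87 genes, of which 51 passed the filter. Of these, 0 had an adjusted p-value under 0.05 and 2 (3.92%) had an unadjusted one under 0.05 in edgeR, beside 4.50% of all genes tested. Their median log2 fold change was 0.036. Of 31 further chemokine ligands 10 were tested, with 5 lower and 5 higher fitted values, and the remaining 21 had at most 14 reads in any library. Of 21 further receptors 9 were tested, with 3 lower and 6 higher fitted values. *Ccl8*, *Cxcl15*, *Xcl1* and *Cxcr1* had no read in any library, which allows up to 0.152 CPM (3 reads) in the shallowest library, for counting error only.

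The ligand with an unadjusted p under 0.05 was *Ccl11* (eotaxin), which draws eosinophils through CCR3. It was at 6.73, 6.09, 8.52, 6.18 and 7.48 CPM in control and 7.33, 9.08, 10.5, 8.94 and 9.67 CPM in *WD1* cKO embryos. Here 4 of 5 mutant libraries were above every control library (log2 fold change 0.38, standard error 0.11, unadjusted p = 0.00559, adjusted p = 1.00 in edgeR). *Ccl25*, a ligand of CCR9, was at 7.39 ± 1.21 and 7.32 ± 0.759 CPM. *Cxcl16*, which like CX3CL1 is made as a membrane protein, was at 5.90 ± 0.991 CPM in control and 6.77 ± 0.776 CPM in *WD1* cKO (SD, n = 5, unadjusted p = 0.115 in edgeR).

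The receptor was *Ackr4*, an atypical receptor that clears CCL19, CCL21 and CCL25. It was at 0.439, 0.662, 0.330, 0.662 and 0.616 CPM in control and 1.10, 0.950, 0.662, 1.32 and 0.837 CPM in *WD1* cKO embryos. The lowest mutant library was at the level of the highest control libraries and the other four were above them, on counts of 7 to 29 reads per library (log2 fold change 0.80, standard error 0.24, unadjusted p = 0.00643, adjusted p = 1.00 in edgeR). Over their alternatives the adjusted p-value ran from 0.349 to 1.00 for *Ccl11* and from 0.433 to 1.00 for *Ackr4*. The receptor gene with the highest level, *Ackr1*, an atypical receptor known from venules and red cells, was at 44.1 ± 4.33 and 44.6 ± 3.01 CPM. *Ccr10* was at 3.21 ± 0.669 and 3.32 ± 0.411 CPM (SD, n = 5).

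In the other lists no gene had an unadjusted p under 0.05. All 3 chemokine proteases were tested, among them *Dpp4*, which trims CXCL12, at 13.7 ± 3.89 CPM in control and 14.0 ± 3.58 CPM in *WD1* cKO (SD, n = 5). Of the 12 genes of the myeloid growth factor system 10 were tested, with 3 lower and 7 higher fitted values. Its 3 most abundant genes were *Ptprz1*, a second receptor of IL-34, at 269 ± 19.2 and 270 ± 18.3 CPM, *Kitl*, the KIT ligand gene, at 232 ± 15.4 and 245 ± 4.78 CPM, and *Kit* at 202 ± 11.4 and 205 ± 17.6 CPM.

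Of 20 genes of the TGF-β system 19 were tested, with 7 lower and 12 higher fitted values. *Smad2*, which carries the signal to the nucleus, was at 126 ± 9.34 CPM in control and 117 ± 7.04 CPM in *WD1* cKO (SD, n = 5, unadjusted p = 0.0915 in edgeR). The co-receptor gene *Tgfbr3* was at 105 ± 5.44 and 114 ± 11.7 CPM (unadjusted p = 0.0922 in edgeR). *Itgav*, an integrin chain that helps to activate latent TGF-β, was at 98.6 ± 2.53 and 103 ± 2.69 CPM (unadjusted p = 0.0764 in edgeR). *Tgfb1* itself had the smallest absolute log2 fold change of the 9 genes first described.

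**Figure D5:**
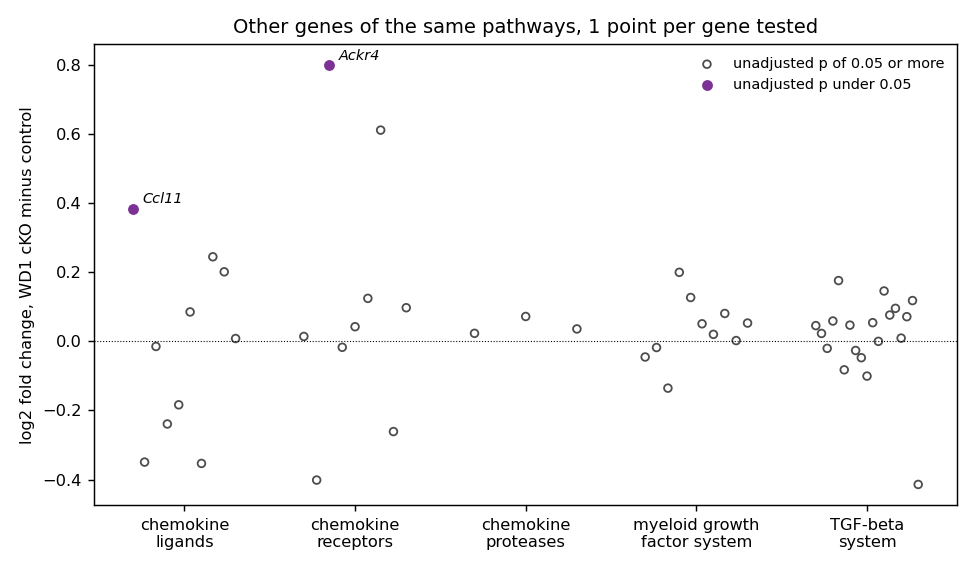
Log2 fold change, *WD1* cKO minus control, of each of the 51 tested genes of the 5 lists, with filled points for an unadjusted p under 0.05 in edgeR. Only *Ccl11* and *Ackr4* are filled, and the 19 tested genes of the TGF-β system lie between -0.41 and 0.18.

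The genes whose profile was most like that of *Cx3cl1* over the 10 libraries were sought among the 17489 other genes tested, by the mean absolute difference of log2 CPM after each gene was centred on its own mean. The nearest were *Gm13028* at 0.10, the keratin gene *Krt26* at 0.11, *4933428G20Rik* at 0.12, *Cdh13*, which encodes a cadherin without a cytoplasmic part, at 0.12 and *Cmya5*, known from striated muscle, at 0.13 on the log2 scale. The median of all genes compared was 0.27. *Cdh13* was the most abundant of them, at 37.6 ± 4.92 CPM in control and 32.8 ± 4.47 CPM in *WD1* cKO (SD, n = 5), and *Gm13028* the least, at 0.634 ± 0.0757 and 0.418 ± 0.0808 CPM. A small distance also favours genes that vary little, and none of the other 8 genes described first was among the nearest 5.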

How the data were processed

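Raw counts per gene were deposited by the authors for each library. They had prepared stranded mRNA libraries, demultiplexed with bcl2fastq 2.20.0.422, aligned with STAR 2.7.8a to GRCm39 and counted with featureCounts 2.0.1. Batches, and which embryos shared a litter, are not given in the sources used here. Nor are the strand setting and the handling of reads with several positions, so overlapping or near-identical genes are uncertain. Symbols were matched for 52081 of 55414 identifiers with GENCODE M21 (GRCm38), which also gave chromosomes, exon lengths and the printed coding sequences.

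The analysis used edgeR 4.0.16 in R 4.3.3, with TMM scaling, a filter of at least 10 counts in at least 5 libraries (17490 genes) and the quasi-likelihood test without covariate, with Benjamini-Hochberg adjustment over all genes tested. CPM use TMM-scaled library sizes, and log2 CPM a prior count of 1. The fit was tested on simulated data. Within groups, chi-square values per degree of freedom between pairs of libraries ran from 3.99 to 14.3, above sampling noise, and each library was 1 replicate. Alternatives were DESeq2 1.42.0 and its size factors, other count filters, the replicate number, *Xist* as a covariate, CPM on raw totals and each library left out.

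Named are the 9 genes, *Dach1*, genes of the pathway lists with an unadjusted p under 0.05 or an adjusted p under 0.05 in an alternative, the 3 most abundant genes of each list, the 5 genes most like *Cx3cl1* and the first 2 markers of a cell type where it is discussed. The genes and lists were chosen with earlier results of these data known. Some marker genes are not reported here.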

Additional observations from a re-analysis of the deposited data

Results flagged for a closer look

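*Cxcr4* in control replicate 5 stood at 16.4 CPM, while the other 4 control libraries were between 8.64 and 10.5 CPM. The gap to the nearest of them was 0.761 of the range of the group, above the 95% critical value of 0.71 for 5 samples (Dixon's ratio). The same library had the highest sum of 8 muscle genes, 200 CPM against 24.8 to 122 CPM elsewhere. Its nociceptor and mechanoreceptor sums, 5114 and 1477 CPM, were also the highest. The part of these genes in the *Cxcr4* value was not tested. The control group of *Cxcr4* was the 1 flagged of 50 groups examined, over 25 genes, and chance would give 2.5.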

How the results depend on the processing

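Over 137 fold changes of the 9 genes under the alternatives, 17 changed sign and 0 had an adjusted p-value under 0.05. *Cx3cl1*, *Il34* and *Ccl2* kept their sign in each alternative that was run. With *Xist* as a covariate the log2 fold change was -0.019 for *Cxcr4*, 0.039 for *Cxcl14* and 0.057 for *Tgfb1*, and without a filter on low counts it was 0.0054 for *Tgfb1*. With each library left out it ran from -0.047 to 0.24 for *Cxcl12*, from -0.036 to 0.23 for *Cxcr4*, from -0.081 to 0.12 for *Ackr3*, from -0.18 to 0.070 for *Cxcl14*, from -0.070 to 0.024 for *Csf1* and from -0.074 to 0.10 for *Tgfb1*. The number of the 9 genes with an unadjusted p under 0.05, 1 with all libraries, ran from 1 to 2 with a library left out. It was 2 without control replicate 4, where *Il34* was added, and without control replicate 5, where *Cxcr4* was. In the pathway lists, read under alternatives added after the data were seen, the number was 2 with all libraries, 4 without a filter, 1 among genes of a mean count no lower than 100, where fewer genes are tested, 4 with the replicate number as a block and 5 with *Xist* as a covariate. It ran from 2 to 5 with a library left out, rising to 4 without control replicates 1 or 3 and to 5 without control replicate 5 or *WD1* cKO replicate 1. Over all genes tested the number moved too. It was 787 of 17490 in the main fit, 1496 of 37123 without a filter and 577 of 12754 with the higher mean count. With the block it was 1241 and with *Xist* 628, each of 17490. Without control replicates 1, 3 and 5 it was 804 of 17404, 789 of 17390 and 965 of 17381. Without *WD1* cKO replicate 1 it was 917 of 17367. The cause of these shifts was not tested.

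The titles do not say what the replicate numbers stand for, and the main fit did not pair libraries by them. Same-numbered libraries had correlations of their deviations from 0.0404 to 0.390, 4 of 5 above 0.1, and 7 of 10 libraries correlated best with their own number. Libraries of the same number were thus partly alike, and the reason was not tested. With the number as a block, 8 genes had an adjusted p under 0.05, beside 7 without it, and 1241 an unadjusted one, beside 787. *Cx3cl1* then had a log2 fold change of -0.42, an unadjusted p of 0.00168, which brought it inside the rule of p under 0.005 with an absolute log2 fold change over 0.15, and an adjusted p of 0.397 in edgeR. Depth limits *Cxcl14* most, with 4 to 15 reads per library.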
